A study of Mus musculus with 12 samples.

Results

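The complement and coagulation factors described here are 33 genes listed by name, with no threshold on their values: plasma proteins of complement, clotting, anticoagulation and clot removal, and the inhibitors that hold them in check. Of these 33 listed genes, 30 had at least 1 probe set carrying that symbol alone, out of 12393 genes so measured. C3, C4b and Cpb2 had none and are not analysed here. RNA was taken from the livers of 12 C57Bl/6J mice aged 6 to 8 weeks and hybridised to 1-colour Affymetrix arrays, 1 array per animal and 3 animals per group. The groups were Aag knock-out mice given methyl methanesulfonate (MMS), a DNA-methylating agent, Aag knock-out mice left as controls, wild-type mice given MMS, and wild-type mice left as controls. Aag, also named Mpg, encodes the glycosylase that starts base excision repair of alkylated bases. Treated mice received 1 intraperitoneal dose of 75 mg/kg and the liver was taken 6 hours later. The controls are called untreated here, and whether they were injected is not given in the sources used here. Neither is the part of Aag that was deleted, nor the tissue in which it was deleted.

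Most of these factors are made by hepatocytes and secreted into blood as inactive precursors, and each cascade is a chain of proteases that cleave and activate the next. Complement starts through antibody (classical), sugar-binding (lectin) or spontaneous (alternative) routes that meet at C3 and end in the membrane attack complex. Clotting starts from tissue factor (extrinsic) or from surface contact (intrinsic), meets at factor X and ends with thrombin making fibrin, which plasmin later dissolves.

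Hepatocyte markers were bright on every array. The mean log2 signal of 11 measured hepatocyte markers was 13.84 to 13.91 in MMS-treated knock-out, 13.83 to 13.87 in untreated knock-out, 13.70 to 13.85 in MMS-treated wild-type and 13.85 to 13.89 in untreated wild-type liver, and 0 of the 11 were called in any comparison. Most of these markers lie near the top of the scale, where differences can be compressed, and the dimmer Tat differed by 0.82 ± 0.19 in the knock-out and -0.61 ± 0.19 in the wild-type MMS response and by -0.75 ± 0.19 between untreated genotypes. Array medians were 7.42 to 7.75. Mpg itself had 2 probe sets. At the brighter one it read 7.62 to 8.18 in MMS-treated and 7.36 to 7.88 in untreated knock-out liver, against 8.02 to 8.5 in MMS-treated and 7.84 to 8.12 in untreated wild-type liver, so that the genotypes overlapped (limma adjusted p = 0.4 with and 0.804 without MMS). At the dimmer one it read 5.32 to 5.75 in MMS-treated and 4.95 to 5.60 in untreated knock-out liver, against 6.40 to 6.94 in MMS-treated and 6.21 to 6.58 in untreated wild-type liver, without overlap and also not called (adjusted p = 0.0793 with and 0.356 without MMS). Where either lies relative to the deletion is not known here. In whole liver, fewer cells of a type and less RNA per cell cannot be told apart. The number of arrays limits the precision of every value, and the animal numbers name separate animals.

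The 30 factors gave bright and closely repeating signals. Their means over the 12 arrays lay between 9.35 and 13.92 on the log2 scale, and 27 of 30 exceeded 11.65, the 90th percentile of all 22626 probe sets. The SD within groups had a median of 0.119 over the 30 factors, against 0.242 over all probe sets. Averaged over the 30, arrays read 12.53 to 12.72 in MMS-treated knock-out, 12.59 to 12.64 in untreated knock-out, 12.34 to 12.54 in MMS-treated wild-type and 12.57 to 12.60 in untreated wild-type liver. All 6 untreated arrays thus lay within a narrow band, and the MMS-treated wild-type arrays lay below it. MMS-treated wild-type array 1 was the lowest of the 12 arrays for 15 of the 30 factors, and MMS-treated knock-out array 2 was the highest for 13.

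**Figure D1:**
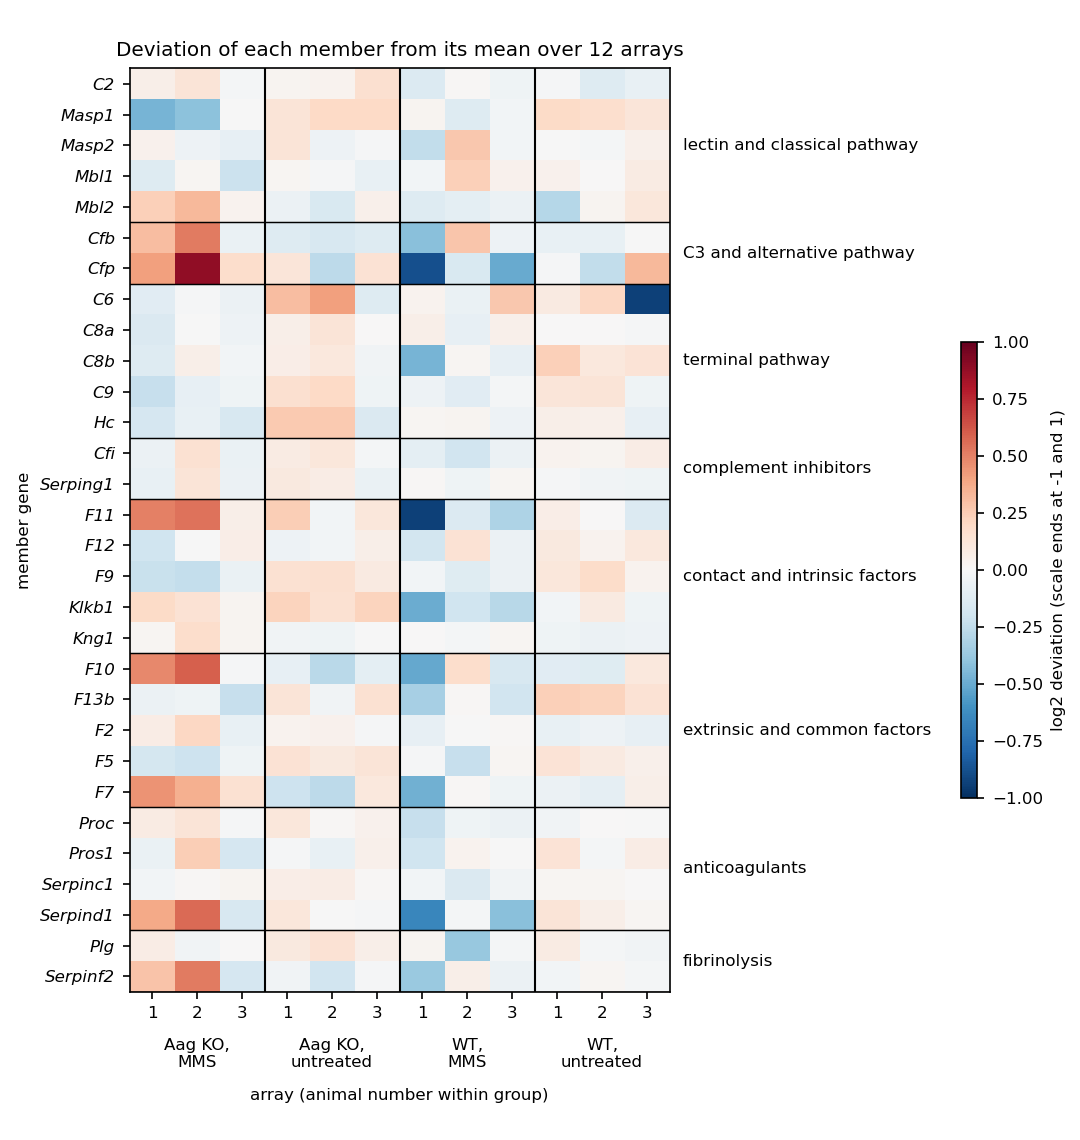
Rows are the 30 measured factors by role, columns the 12 arrays by group, and the colour is the log2 deviation of an array from that gene's mean over the 12 arrays. Most cells are pale, MMS-treated wild-type array 1 is blue for 15 factors that it holds lowest, and C6 has 1 dark cell in untreated wild-type array 3.

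A single factor passed the threshold in any of the 6 comparisons: Masp1, the lectin pathway protease, fell in the MMS response averaged over both genotypes. The other 29 did not pass in that comparison, and 0 of 30 passed in the 5 others. Over all probe sets 11.3% passed in the averaged response, 1.51% in the knock-out response, 6.44% in the wild-type response, 0.0398% between untreated genotypes, 0.0177% between MMS-treated genotypes and 0% in the difference of the responses (limma, Benjamini-Hochberg adjusted p under 0.05 over 22626 probe sets). At an unadjusted p under 0.05 there were 7 factors between MMS-treated genotypes (23.3% of the 30), against 18.4% of all probe sets. This was the one count above its background, but it lay near it and is not read as a result about the factors. There were 5 factors (16.7%) in the averaged response against 27.6% of all probe sets, 5 in the knock-out response against 24.8%, 4 (13.3%) in the wild-type response against 23.2%, 0 between untreated genotypes against 7.16%, and 5 in the difference of the responses against 17.7%.

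Only the averaged response of Masp1 was called, and the differences were small on this scale. In the averaged MMS response the median absolute log2 difference was 0.10 over the 30 factors, against 0.19 over all probe sets. The factors were brighter (median level 12.76 against 7.58), where differences can be compressed, and their SD within groups was lower. Such sizes are therefore not compared like for like, here or below. In the averaged response the 95% interval lay wholly within 0.5 log2 units of 0 for 29 of the 30. The interval was that narrow for 17 factors in the knock-out response, 22 in the wild-type response, 26 between untreated and 19 between MMS-treated genotypes. Differences of 1 log2 unit lay outside the interval of 29 of 30 factors in each single-genotype response.

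**Figure D2:**
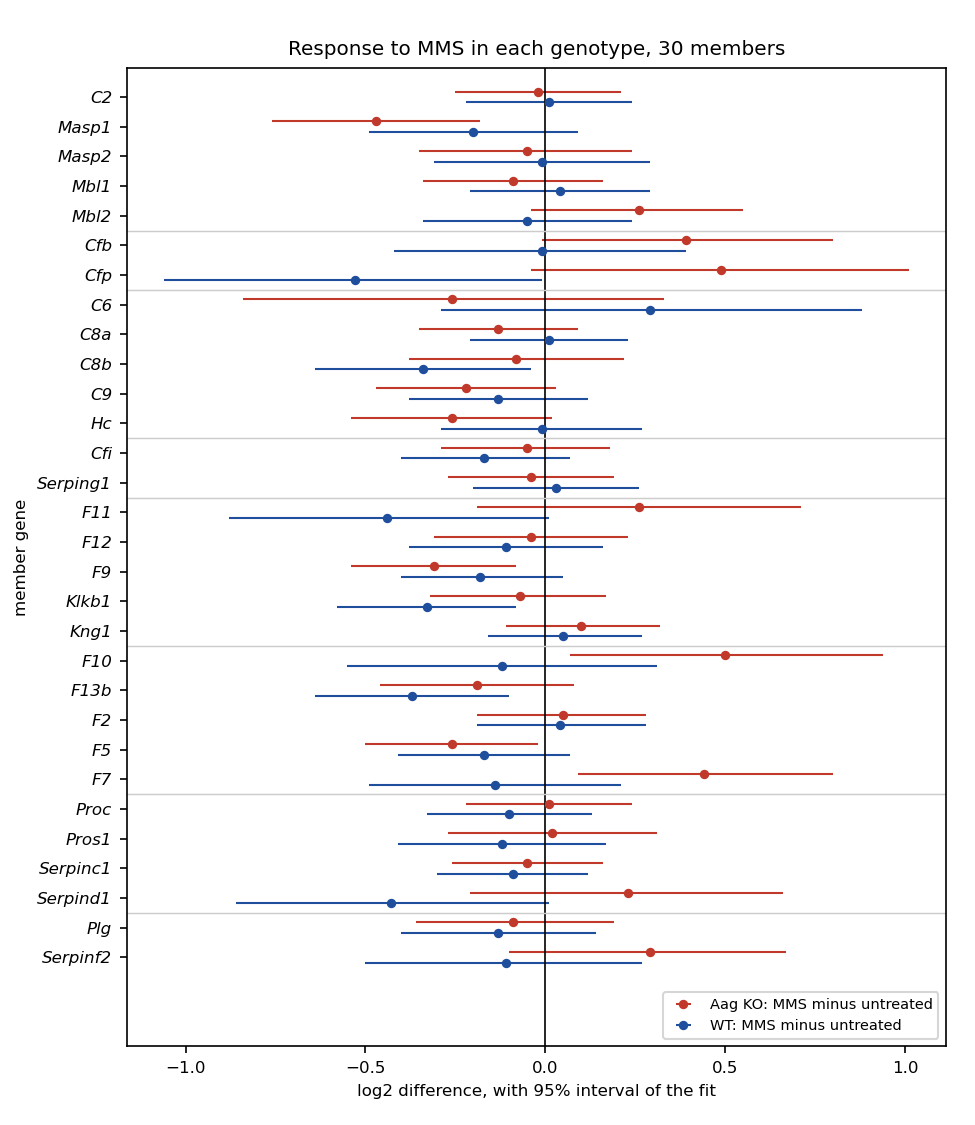
Each row is a factor, points are the log2 difference of MMS-treated minus untreated liver in knock-out (red) and wild-type (blue) mice, and bars are 95% intervals of the fit. The differences run from -0.47 to 0.50 in knock-out and from -0.53 to 0.29 in wild-type liver, and most bars cross 0.

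The lectin pathway recognises microbial sugars through mannose-binding lectins and activates through Masp proteases. Masp1, which cleaves Masp2 and C2, read 12.59, 12.64 and 13.04 in MMS-treated knock-out and 13.17, 13.24 and 13.25 in untreated knock-out liver. It read 13.08, 12.92 and 13.02 in MMS-treated wild-type and 13.23, 13.22 and 13.16 in untreated wild-type liver. Every treated array lay below every untreated array of its genotype, and knock-out arrays 1 and 2 lay lowest. Masp1 fell by 0.33 ± 0.09 (SE) on the log2 scale over both genotypes, a 1.26-fold lower signal (limma adjusted p = 0.0419). The difference was -0.47 ± 0.13 in knock-out and -0.20 ± 0.13 in wild-type liver, neither called (adjusted p = 0.0776 and 0.391), and the difference of these responses was -0.27 ± 0.18 (adjusted p = 0.465).

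This call sat close to the threshold. It was kept in 2 of the 12 fits that left out 1 array each, those without MMS-treated knock-out array 3 and without MMS-treated wild-type array 1 (adjusted p from 0.00614 to 0.108 over the 12), and it was lost with each array centred on its median (-0.27, adjusted p = 0.122), with the mean of all Masp1 probe sets (-0.22, adjusted p = 0.0752) and with the animal number as a replicate block (adjusted p = 0.0598). Masp1 had 4 other probe sets, whose averaged responses were -0.31, -0.37, -0.16 and 0.08. The last of these was dim, with a mean log2 signal of 4.93. In the same order the 4 gave -0.40, -0.29, 0.04 and -0.08 in knock-out liver. In wild-type liver they gave -0.21, -0.44, -0.35 and 0.23. Which genotype had the larger fall thus depended on the probe set.

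The remaining lectin and classical factors gave 0 calls. Masp2, the protease that cleaves C4 and C2, differed by -0.05 ± 0.14 in knock-out and -0.01 ± 0.14 in wild-type liver. C2, which supplies the protease part of the C3 convertase, differed by -0.02 ± 0.10 and 0.01 ± 0.10. The mannose-binding lectins Mbl1 and Mbl2 are encoded by related genes and were set beside each other. Mbl1 read 12.65, 12.80 and 12.57 in MMS-treated knock-out and 12.76, 13.02 and 12.82 in MMS-treated wild-type liver, a difference of -0.19 ± 0.11. Mbl2 read 13.26, 13.35 and 13.06 in MMS-treated knock-out and 12.89, 12.93 and 12.96 in MMS-treated wild-type liver, a difference of 0.30 ± 0.13. The Mbl2 groups did not overlap and the Mbl1 groups did, with opposite signs, and neither was called (adjusted p = 0.387 for Mbl1 and 0.266 for Mbl2).

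The alternative pathway was represented by factor B and properdin. Cfb, the protease of the alternative convertase, read 13.04, 13.26 and 12.67 in MMS-treated knock-out and 12.60, 12.57 and 12.61 in untreated knock-out liver, against 12.32, 13.01 and 12.68 in MMS-treated wild-type and 12.66, 12.66 and 12.73 in untreated wild-type liver. Treated arrays of both genotypes were spread widely while untreated arrays lay close together. The difference was 0.39 ± 0.18 in knock-out and -0.01 ± 0.18 in wild-type liver (adjusted p = 0.216 and 0.976). C2 and Cfb, which are neighbours on chromosome 17 with 0 protein-coding genes between them, differed between MMS-treated genotypes by 0.11 ± 0.10 and 0.32 ± 0.18.

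Cfp encodes properdin, which stabilises the alternative convertase and is known as a product of myeloid cells more than of hepatocytes. It read 9.76, 10.24 and 9.53 in MMS-treated knock-out and 9.48, 9.09 and 9.50 in untreated knock-out liver, against 8.48, 9.20 and 8.85 in MMS-treated wild-type and 9.34, 9.11 and 9.68 in untreated wild-type liver. All MMS-treated knock-out arrays lay above all MMS-treated wild-type arrays, while the untreated genotypes overlapped. The difference between MMS-treated genotypes was 1.00 ± 0.24, or 2.0-fold, and was not called (adjusted p = 0.11). The MMS response was 0.49 ± 0.24 in knock-out and -0.53 ± 0.24 in wild-type liver, and the difference of the responses was 1.02 ± 0.34 (adjusted p = 0.188).

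Most markers of Kupffer cells and macrophages differed in the same direction as Cfp. The mean over 9 of 10 listed markers was 10.41 to 10.96 in MMS-treated knock-out and 10.24 to 10.59 in untreated knock-out liver, against 9.93 to 10.38 in MMS-treated wild-type and 9.96 to 10.52 in untreated wild-type liver. Between MMS-treated genotypes 8 of the 9 were higher in knock-out, with a median difference of 0.54 and 0 called. Among the defining ones, Clec4f differed by 1.03 ± 0.31 and Adgre1 by 0.69 ± 0.15, while Cd5l differed by 0.15 ± 0.15 and Marco by -0.38 ± 0.34. Markers of other cells differed in that direction too: 9 of 10 stellate (median 0.62), 8 of 8 lymphocyte (0.56), 8 of 10 endothelial (0.27) and 4 of 5 bile duct markers (0.87) were positive, with 0 called. Platelet and erythroid markers did not, with 3 of 7 and 1 of 4 positive. Markers of neutrophils, which are also myeloid cells, were divided, with 5 of 9 positive, a median of 0 and 0 called. The part of any of these cells in the Cfp value was not tested.

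The terminal factors assemble the membrane pore, and 0 of 5 were called. Hc, which encodes C5, read 12.83, 12.93 and 12.85 in MMS-treated knock-out and 13.26, 13.27 and 12.86 in untreated knock-out liver, against 13.03, 13.03 and 12.95 in MMS-treated wild-type and 13.06, 13.06 and 12.92 in untreated wild-type liver. The knock-out groups overlapped because untreated array 3 was as low as the treated arrays (-0.26 ± 0.13, adjusted p = 0.234). C9, the pore-forming subunit, read 13.38, 13.53 and 13.57 in MMS-treated knock-out and 13.77, 13.81 and 13.56 in untreated knock-out liver, against 13.56, 13.50 and 13.59 in MMS-treated wild-type and 13.73, 13.74 and 13.57 in untreated wild-type liver. As for Hc, untreated array 3 of each genotype was lower than arrays 1 and 2, and for C9 it lay among the treated ones. The C9 difference was -0.22 ± 0.11 in knock-out and -0.13 ± 0.11 in wild-type liver (adjusted p = 0.254 and 0.536).

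C8a and C8b encode chains of C8 and are adjacent on chromosome 4. C8b read 12.98, 13.16 and 13.08 in MMS-treated knock-out and 13.18, 13.21 and 13.07 in untreated knock-out liver, against 12.64, 13.12 and 13.02 in MMS-treated wild-type and 13.35, 13.21 and 13.25 in untreated wild-type liver. The knock-out groups overlapped and the wild-type groups did not. C8b differed by -0.08 ± 0.14 in knock-out and by -0.34 ± 0.14 in wild-type liver (adjusted p = 0.744 and 0.164), and C8a by -0.13 ± 0.10 and 0.01 ± 0.10.

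C6, which joins C5b to start the pore, was the least repeatable of the terminal factors. It read 12.17, 12.27 and 12.22 in MMS-treated knock-out, 12.59, 12.69 and 12.15 in untreated knock-out, 12.31, 12.21 and 12.55 in MMS-treated wild-type and 12.37, 12.49 and 11.34 in untreated wild-type liver. The value of 11.34 in untreated wild-type array 3 lay below the 11 others, and the SD of that group was 0.629.

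The 2 complement inhibitors differed little. Cfi, the protease that inactivates C3b, read 13.11, 13.32 and 13.11 in MMS-treated knock-out and 13.25, 13.28 and 13.15 in untreated knock-out liver, against 13.07, 12.98 and 13.11 in MMS-treated wild-type and 13.21, 13.20 and 13.24 in untreated wild-type liver. Its groups overlapped in knock-out liver only. The difference was -0.05 ± 0.11 in knock-out and -0.17 ± 0.11 in wild-type liver (adjusted p = 0.792 and 0.385). Serping1, which blocks C1 and kallikrein, differed by -0.04 ± 0.10 in knock-out and 0.03 ± 0.10 in wild-type liver.

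In the contact and intrinsic route, F12 and kallikrein start clotting on surfaces, kininogen carries kallikrein, and factors XI and IX pass activation to factor X. F9, the haemophilia B factor, had the second smallest p of the 30 in the averaged response. It read 12.34, 12.32 and 12.50 in MMS-treated knock-out and 12.71, 12.72 and 12.65 in untreated knock-out liver, against 12.54, 12.44 and 12.51 in MMS-treated wild-type and 12.68, 12.75 and 12.60 in untreated wild-type liver. Treated arrays lay below untreated arrays in both genotypes without overlap. The averaged difference was -0.24 ± 0.07 and just missed the threshold (adjusted p = 0.0553), and without MMS-treated knock-out array 3 it passed (adjusted p = 0.0274).

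**Figure D3:**
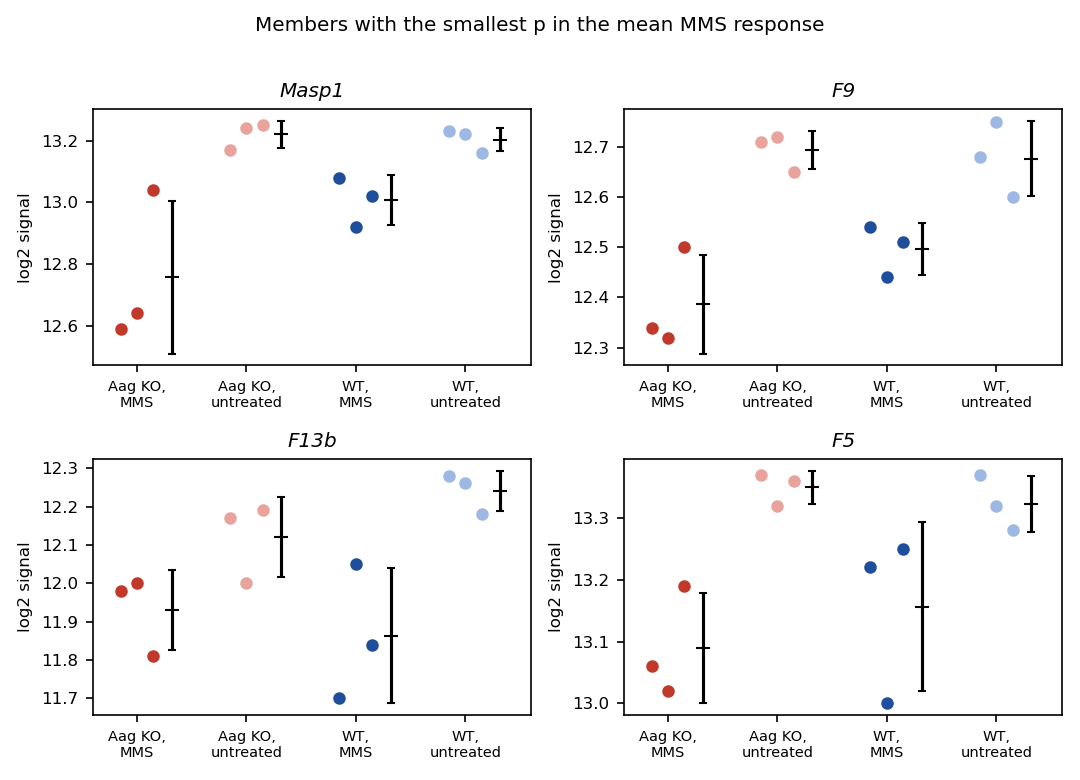
Points are the log2 signals of the 3 arrays of each group for Masp1, F9, F13b and F5, with the mean and SD beside them and a separate vertical scale per gene that does not start at 0. For Masp1, F9 and F5 the treated arrays lie below the untreated arrays of their genotype, with Masp1 down to 12.59 in knock-out liver, and for F13b treated and untreated knock-out arrays numbered 2 lie at the same height.

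F13b encodes the carrier subunit of factor XIII, which cross-links fibrin. It read 11.98, 12 and 11.81 in MMS-treated knock-out and 12.17, 12 and 12.19 in untreated knock-out liver, against 11.70, 12.05 and 11.84 in MMS-treated wild-type and 12.28, 12.26 and 12.18 in untreated wild-type liver. Knock-out arrays numbered 2 read alike with and without MMS, and the wild-type groups lay well apart. The averaged difference was -0.28 ± 0.09 (adjusted p = 0.0601), with -0.19 ± 0.12 in knock-out and -0.37 ± 0.12 in wild-type liver (adjusted p = 0.36 and 0.095). Without MMS-treated wild-type array 2 the averaged difference passed (-0.33, adjusted p = 0.0387). F5, the cofactor of factor X, read 13.06, 13.02 and 13.19 in MMS-treated knock-out and 13.37, 13.32 and 13.36 in untreated knock-out liver, against 13.22, 13 and 13.25 in MMS-treated wild-type and 13.37, 13.32 and 13.28 in untreated wild-type liver. Its averaged difference was -0.21 ± 0.08 (adjusted p = 0.098), and its other probe set gave -0.31 ± 0.21.

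The promoters of F9 and F13b are shown because these factors came nearest to the threshold after Masp1, for which no promoter was in the table. Windows of 300 bases from upstream of the annotated start to 50 bases past it came from RefSeq (GRCm38.p6) for 22 of the 30 factors, and are printed 5′ to 3′ in the direction of the gene. Capitals mark matches, on either strand, to letter patterns for liver and acute phase regulators: TTCNNNGAA for STAT factors, TTGCNNAA for C/EBP factors, GTTAAT for HNF1, AAGTCCA for HNF4 and the NF-kB pattern. F9 (chrX:59999214-59999513, plus strand) holds a STAT and a C/EBP match, 82 and 24 bases before the start, and F13b (chr1:139501457-139501756, plus strand) an HNF1 match 51 bases before it.
F9: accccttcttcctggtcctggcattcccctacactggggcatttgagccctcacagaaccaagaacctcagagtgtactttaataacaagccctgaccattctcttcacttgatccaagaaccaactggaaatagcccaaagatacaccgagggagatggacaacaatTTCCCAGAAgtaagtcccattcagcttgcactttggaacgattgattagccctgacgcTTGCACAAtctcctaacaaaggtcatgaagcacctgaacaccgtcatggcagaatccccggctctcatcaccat
F13b: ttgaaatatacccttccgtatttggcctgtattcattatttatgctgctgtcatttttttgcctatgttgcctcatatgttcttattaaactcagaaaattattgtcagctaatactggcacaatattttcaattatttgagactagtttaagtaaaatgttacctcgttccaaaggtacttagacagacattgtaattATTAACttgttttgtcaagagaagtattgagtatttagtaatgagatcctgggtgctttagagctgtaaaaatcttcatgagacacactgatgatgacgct

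No matched stretches of different patterns overlapped in the windows printed. Across the 22 windows, the HNF1 pattern occurred in 6 (27.3%, against 7.1% of 32851 promoters): F13b, Hc, F2, C8b, C8a and Cfp. The C/EBP pattern occurred in 5 (22.7%, against 10.8%): Serpinc1, F11, Klkb1, C9 and F9. The STAT pattern occurred in 4 (18.2%, against 8.3%): C8a, Masp2, Pros1 and F9. The HNF4 pattern occurred in 1, F10 (4.55%, against 4.17%), and the NF-kB pattern in 0 (against 4.79%). A match is a run of letters and not a site shown to be bound. Factors with a match include F9 and F13b, near the threshold, and also ones with averaged MMS responses near 0, such as Masp2 (-0.03 ± 0.10), Pros1 (-0.05 ± 0.09) and F2 (0.04 ± 0.07). For Cfp, which also holds a match, the average of -0.02 ± 0.17 joins opposite values, 0.49 ± 0.24 in knock-out and -0.53 ± 0.24 in wild-type liver.

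F11 and Klkb1 lie side by side on chromosome 8 with 0 protein-coding genes between them, and both were higher in MMS-treated knock-out than in MMS-treated wild-type liver. F11, which activates factor IX, read 12.21, 12.25 and 11.77 in MMS-treated knock-out and 11.95, 11.68 and 11.82 in untreated knock-out liver, against 10.78, 11.57 and 11.40 in MMS-treated wild-type and 11.77, 11.71 and 11.57 in untreated wild-type liver. The MMS-treated genotypes did not overlap, and MMS-treated wild-type array 1 was the lowest of the 12. That difference was 0.83 ± 0.20, or 1.77-fold, and was not called (adjusted p = 0.116). Klkb1, plasma prekallikrein, read 12.51, 12.45 and 12.34 in MMS-treated knock-out and 12.53, 12.46 and 12.53 in untreated knock-out liver, against 11.82, 12.11 and 12.03 in MMS-treated wild-type and 12.28, 12.40 and 12.27 in untreated wild-type liver. The MMS-treated wild-type arrays lay below the 9 others. The difference between MMS-treated genotypes was 0.45 ± 0.11 (adjusted p = 0.118), that between untreated genotypes was 0.19 ± 0.11 without overlap (adjusted p = 0.789), and the wild-type MMS response was -0.33 ± 0.11 (adjusted p = 0.108).

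The promoters of this adjacent pair each hold 1 C/EBP match in capitals, 17 bases before the start of F11 (chr8:45261982-45262281, minus strand) and 177 bases before that of Klkb1 (chr8:45294786-45295085, minus strand).
F11: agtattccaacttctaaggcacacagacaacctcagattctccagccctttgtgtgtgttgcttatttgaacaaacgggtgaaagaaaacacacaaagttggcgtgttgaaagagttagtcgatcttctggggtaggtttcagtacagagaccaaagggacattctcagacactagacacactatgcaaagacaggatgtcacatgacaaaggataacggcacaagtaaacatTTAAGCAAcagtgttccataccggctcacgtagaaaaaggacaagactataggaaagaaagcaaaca
Klkb1: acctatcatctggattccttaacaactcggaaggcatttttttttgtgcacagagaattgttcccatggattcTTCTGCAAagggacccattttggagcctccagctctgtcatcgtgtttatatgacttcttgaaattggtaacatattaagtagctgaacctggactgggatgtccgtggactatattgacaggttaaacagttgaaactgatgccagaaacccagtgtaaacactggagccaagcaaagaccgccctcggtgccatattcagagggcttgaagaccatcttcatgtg

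The other contact factors moved little. F12 differed by -0.04 ± 0.12 in knock-out and -0.11 ± 0.12 in wild-type liver. Kng1, the kininogen gene, differed by 0.10 ± 0.10 and 0.05 ± 0.10. Its arrays read 13.90, 14.06 and 13.91 in MMS-treated knock-out against 13.84, 13.84 and 13.88 in untreated knock-out liver, and the groups did not overlap although the difference was about the size of its SE. Its other probe set went the opposite way in knock-out liver (-0.25 ± 0.10).

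Of the extrinsic and common factors, F7 and F10 had positive MMS responses in knock-out liver. F7, the protease that tissue factor activates, read 10.86, 10.76 and 10.56 in MMS-treated knock-out and 10.20, 10.15 and 10.51 in untreated knock-out liver, against 9.92, 10.42 and 10.36 in MMS-treated wild-type and 10.35, 10.31 and 10.47 in untreated wild-type liver. The MMS-treated knock-out arrays were the 3 highest of the 12. F7 differed by 0.44 ± 0.16 in knock-out and -0.14 ± 0.16 in wild-type liver (adjusted p = 0.124 and 0.638), and by 0.49 ± 0.16 between MMS-treated genotypes (adjusted p = 0.169).

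F10, its neighbour on chromosome 8 and the point where the routes meet, read 12.77, 12.89 and 12.28 in MMS-treated knock-out and 12.21, 12.02 and 12.20 in untreated knock-out liver, against 11.78, 12.47 and 12.13 in MMS-treated wild-type and 12.18, 12.17 and 12.40 in untreated wild-type liver. Knock-out groups did not overlap, and the MMS-treated genotypes did. The difference was 0.50 ± 0.20 in the knock-out response (adjusted p = 0.149) and 0.52 ± 0.20 between MMS-treated genotypes (adjusted p = 0.212). The 2 other F10 probe sets gave -0.09 ± 0.15 and -0.28 ± 0.14 in the knock-out response and -0.10 ± 0.15 and -0.15 ± 0.14 between MMS-treated genotypes, so the direction for F10 depended on the probe set. F2, prothrombin, differed by 0.05 ± 0.11 in knock-out and 0.04 ± 0.11 in wild-type liver.

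Among the anticoagulants, Serpind1, heparin cofactor II, stood apart from the rest. It read 12.46, 12.66 and 11.93 in MMS-treated knock-out and 12.20, 12.09 and 12.08 in untreated knock-out liver, against 11.44, 12.07 and 11.67 in MMS-treated wild-type and 12.21, 12.14 and 12.11 in untreated wild-type liver. The MMS-treated genotypes overlapped by 1 pair of arrays, and their difference was 0.62 ± 0.20, or 1.54-fold (adjusted p = 0.165). The wild-type MMS response was -0.43 ± 0.20, without overlap (adjusted p = 0.221). Serpinc1, antithrombin and the main inhibitor of thrombin, kept within 13.77 and 14 on all 12 arrays. Its MMS response was -0.05 ± 0.10 in knock-out and -0.09 ± 0.10 in wild-type liver. Proc and Pros1, protein C and its cofactor protein S, differed by 0.01 ± 0.10 and 0.02 ± 0.13 in knock-out and by -0.10 ± 0.10 and -0.12 ± 0.13 in wild-type liver.

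For fibrinolysis, Plg, the precursor of plasmin, differed by -0.09 ± 0.12 in knock-out and -0.13 ± 0.12 in wild-type liver. Serpinf2, the plasmin inhibitor, read 12.63, 12.87 and 12.18 in MMS-treated knock-out and 11.98, 12.41 and 12.30 in MMS-treated wild-type liver, overlapping groups with a difference of 0.33 ± 0.17 (adjusted p = 0.333). The vitamin K-dependent factors (F2, F7, F9, F10, Proc and Pros1) share a carboxylation step in their making. In the knock-out response 5 of these 6 differences were positive, Proc and Pros1 barely so, with F9 the exception, and 0 were called. With a control-probe covariate, whose values are given with the genotype comparison, 2 of the 6 were positive (F7 and F10).

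**Figure D4:**
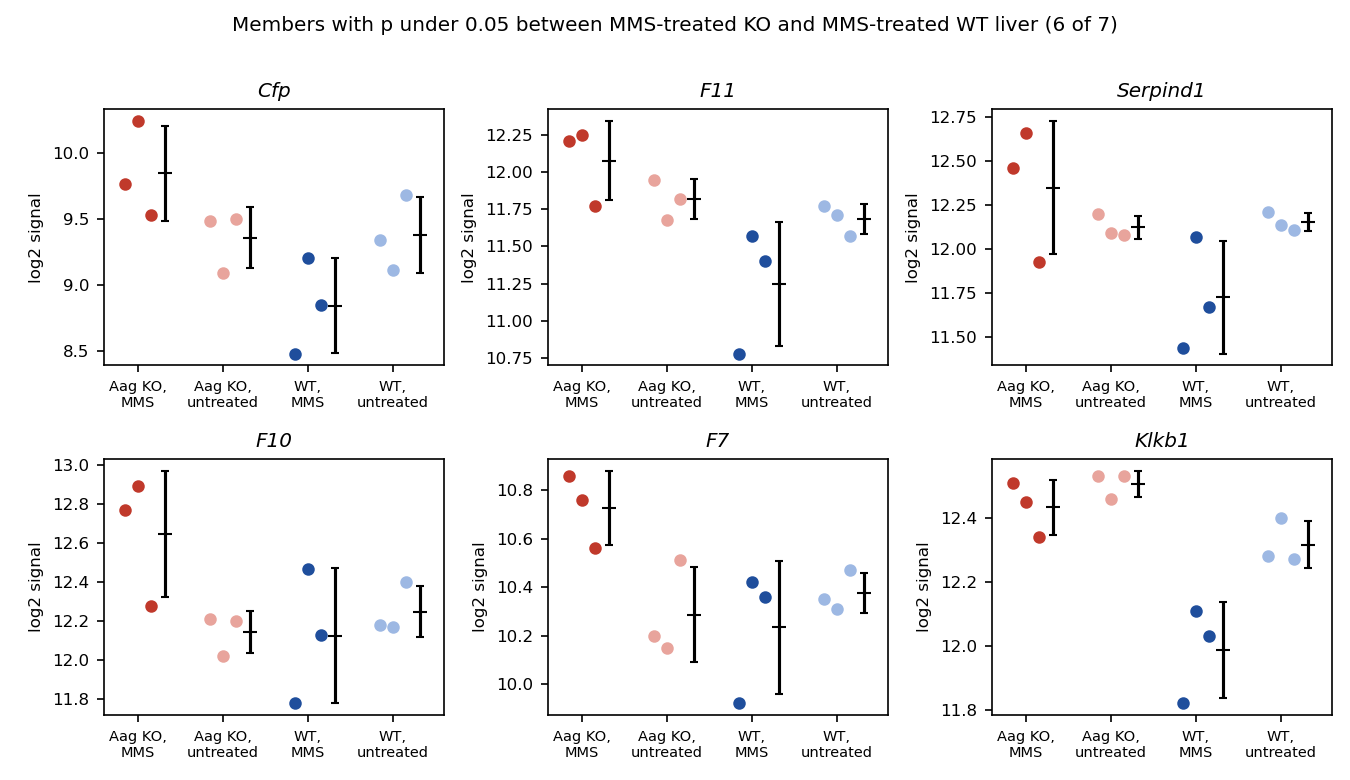
Points are the log2 signals of the 3 arrays per group for 6 of the 7 factors at an unadjusted p under 0.05 between MMS-treated genotypes, with the mean and SD beside them and separate vertical scales that do not start at 0. In MMS-treated wild-type liver array 1, the first point, is the lowest of its group in all 6 panels, and in MMS-treated knock-out liver array 3 is the lowest.

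The 7 factors at an unadjusted p under 0.05 between MMS-treated genotypes were Cfp, F11, Klkb1, F7, Serpind1, F10 and Mbl2, chosen for naming after their values were seen. All 7 were higher in the knock-out, and 0 passed after adjustment (adjusted p from 0.11 to 0.266). Of all 30 factors, 20 were positive in this comparison with a median of 0.08, against a median of 0.02 over all probe sets. Each array was also centred on its median, which moved the median over all probe sets to -0.14. The count of positive factors was then 10 of 30 and their median -0.08. Centring shifts every factor in this comparison by the same amount. The 7 named, each at 0.30 or more before it, thus stayed above 0 by arithmetic (from 0.13 for Mbl2 to 0.84 for Cfp). Coagulation factors were positive in 13 of 16 and complement factors in 7 of 14 as deposited, and in 7 of 16 and 3 of 14 after that centring. Groups did not overlap for 9 of the 30, 8 of them higher in knock-out, against 17.6% of all probe sets.

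The call count in this comparison rested on 1 array. Without MMS-treated knock-out array 3, 4 of the 30 passed (Cfp, F11, Serpind1 and Klkb1), and 4.94% of all probe sets passed. With that array in, and leaving out any of the 11 others in turn, 0 passed.

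A measure of RNA integrity and labelling also differed among the MMS-treated arrays. Control probe sets at the 5′ and 3′ ends of the Gapdh and beta-actin transcripts report how far the labelled copies extend, and their mean 5′ minus 3′ log2 difference was -1.61, -1.51 and -2.46 in MMS-treated knock-out and -2.54, -2.66 and -2.33 in untreated knock-out liver, against -2.61, -2 and -2.46 in MMS-treated wild-type and -2.40, -2.41 and -2.27 in untreated wild-type liver. MMS-treated knock-out arrays 1 and 2 were the highest and MMS-treated wild-type array 1 the second lowest. With this measure as a covariate, the difference between MMS-treated genotypes was 0.62 ± 0.20 for Cfp, 0.52 ± 0.18 for F11, 0.35 ± 0.11 for Klkb1, 0.28 ± 0.15 for F7, 0.27 ± 0.14 for Serpind1, 0.17 ± 0.14 for Mbl2 and 0.16 ± 0.13 for F10. All 7 were smaller than without it. At an unadjusted p under 0.05 there were 4 of the 30 factors in this limma fit: Cfp, F11, Klkb1 and Mbl1. Mbl1 was lower in knock-out (-0.31 ± 0.11). The share of all probe sets at that level in this fit is not given here. In the same fit the knock-out MMS responses given above as positive were smaller or near 0: F7 was 0.16 ± 0.16, F10 0.03 ± 0.14, Cfp -0.01 ± 0.22 and Cfb -0.02 ± 0.15. The averaged MMS response of Masp1 was -0.21 ± 0.07 (adjusted p = 0.145) and that of F13b was -0.38 ± 0.08 (adjusted p = 0.0287).

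**Figure D5:**
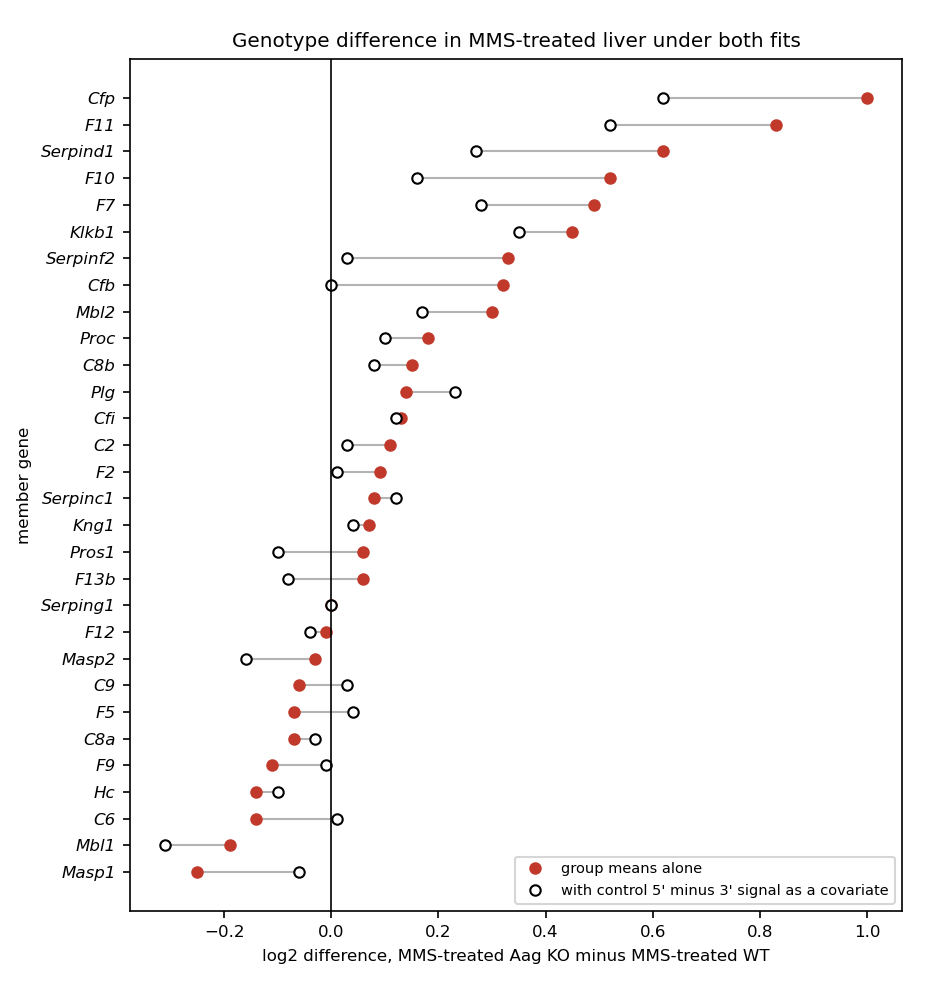
Each row is a factor, filled points are the log2 difference of MMS-treated knock-out minus MMS-treated wild-type liver from group means alone, and open points the same with the control 5′ minus 3′ signal as a covariate. Open points lie nearer 0 for the 9 factors with the largest filled values, from Cfp (1.00 and 0.62) to Mbl2 (0.30 and 0.17).

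Without MMS the genotypes were close. Differences between untreated knock-out and untreated wild-type liver had a median of 0.02 over the 30 factors and a median absolute size of 0.07, against 0.15 over all probe sets. As deposited 18 of the 30 were positive. With each array centred on its median 27 were positive and the median was 0.11, against 0.08 over all probe sets. The count of positive factors thus depended on the scaling. Groups did not overlap for 7 factors, 5 of them higher and 2 lower in knock-out, against 18.3% of all probe sets. Leaving C6 aside (0.41 ± 0.27), Klkb1 had the largest difference.

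In knock-out liver, 18 of the 30 MMS responses were negative as deposited, with a median of -0.04 against -0.06 over all probe sets, and 21 were negative with each array centred on its median. Groups did not overlap for 10 of the 30, 5 in each direction, against 26.7% of all probe sets. In wild-type liver, 23 of the 30 were negative as deposited, with a median of -0.12 against -0.05 over all probe sets. After that centring 7 of 30 were negative and the median was 0.08, against 0.14 over all probe sets, so the common direction depended on the scaling. Without MMS-treated wild-type array 1 the median as deposited was -0.04, against -0.03 over all probe sets. Groups did not overlap for 11 of the 30, 10 of them lower after MMS, against 31.8% of all probe sets.

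Other genes of these pathways gave a few calls. Of 18 measured complement genes outside the 30 factors, 1 rose in the knock-out response and 0 were called in the wild-type response. That gene was Cd59a, a membrane inhibitor of the terminal pore, which read 11.35, 11.60 and 10.99 in MMS-treated knock-out against 10.51, 10.42 and 10.53 in untreated knock-out liver (0.82 ± 0.16, adjusted p = 0.0408). In wild-type liver Cd59a differed by -0.21 ± 0.16, and the difference of the responses was 1.03 ± 0.22 (adjusted p = 0.104).

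Of 28 measured coagulation genes outside the 30 factors, 0 were called in the knock-out response (5 at an unadjusted p under 0.05), 1 rose and 2 fell in the wild-type response, and 1 rose and 4 fell in the averaged response. Serpina10, the protein Z-dependent inhibitor of factor X, read 13.37, 13.08 and 13.25 in MMS-treated against 12.52, 12.47 and 12.55 in untreated wild-type liver. It rose by 0.72 ± 0.13 there (adjusted p = 0.0128), with means of 12.73 in MMS-treated and 12.61 in untreated knock-out liver. Its partner Proz fell by 0.47 ± 0.13 in another comparison, the averaged response (adjusted p = 0.0361). Proz means were 11.58 in MMS-treated and 12.31 in untreated knock-out liver, and 12.01 and 12.22 in wild-type liver. F8, the haemophilia A factor and cofactor of factor IX, which endothelial cells make, fell by 0.59 ± 0.14 in wild-type liver (adjusted p = 0.0321). Anxa2, a plasminogen receptor, fell by 0.98 ± 0.23 in wild-type liver (adjusted p = 0.0334). In knock-out liver Anxa2 read higher with MMS, 9.34, 9.89 and 9.13 against 8.97, 9.02 and 9.02 in untreated arrays, without a call. Ggcx, the enzyme that carboxylates vitamin K-dependent factors, read 8.29, 8.38 and 8.81 in MMS-treated and 8.92, 8.97 and 8.61 in untreated knock-out liver, against 8.57, 8.64 and 8.68 in MMS-treated and 9.17, 9.02 and 9.29 in untreated wild-type liver. It fell by 0.44 ± 0.11 over both genotypes (adjusted p = 0.0316). The others that fell in the averaged response were F8 (-0.51 ± 0.10, adjusted p = 0.0101) and Plat, tissue plasminogen activator, whose adjusted p lay just under the threshold (-0.50 ± 0.15). The Plat probe set was dim, with a mean log2 signal of 4.87. In the wild-type response endothelial markers moved with F8: 4 of 10 fell and 10 of 10 were negative. Their mean levels were 8.77 to 8.84 in MMS-treated against 9.24 to 9.42 in untreated wild-type liver. In the knock-out response their median was -0.17 with 3 of 10 positive, and F8 means were 9.45 with and 9.88 without MMS. Between MMS-treated genotypes 8 of 10 were higher in knock-out, while F8 means were 9.45 in knock-out and 9.44 in wild-type liver. The part of endothelial cells in the F8 value was not tested.

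The fibrinogen genes, which belong to clotting and to the acute phase, gave 0 calls. In knock-out liver Fga differed by -0.07 ± 0.15, Fgb by 0.13 ± 0.11 and Fgg by 0.12 ± 0.11, and treated and untreated arrays overlapped for each. In wild-type liver the differences were 0.07 ± 0.15 for Fga, 0.19 ± 0.11 for Fgb and 0.15 ± 0.11 for Fgg, with treated arrays above untreated ones without overlap for Fgb and Fgg.

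Acute phase genes were set beside the factors as comparators, and most but not all of them encode secreted proteins. The metallothioneins Mt1 and Mt2 and the membrane protein Steap4 are not secreted. Of 17 measured, 1 rose (Mt2) and 0 fell in the knock-out response, with a median of 0.15. In the wild-type response 6 of the 17 rose and 0 fell, with a median of 0.63. Their mean level was 12.36 to 13.22 in MMS-treated and 12.20 to 12.30 in untreated knock-out liver, against 13.31 to 13.42 in MMS-treated and 12.10 to 12.50 in untreated wild-type liver. Saa2, a serum amyloid A gene, rose by 2.41 ± 0.53 in wild-type liver (adjusted p = 0.0245), where the largest positive value among the 30 factors was that of C6 (0.29 ± 0.27). Among 18 measured regulators of liver secreted genes, 0 were called in the knock-out response (4 at an unadjusted p under 0.05) and 4 rose in the wild-type response: Stat3, the factor that carries interleukin 6 signals (0.68 ± 0.17, adjusted p = 0.044), its feedback inhibitor Socs3 (3.07 ± 0.70, adjusted p = 0.0291), and the clock-linked factors Dbp (4.33 ± 0.47, adjusted p = 0.00214) and Tef (1.35 ± 0.28, adjusted p = 0.0212). Dbp already differed between untreated genotypes: it read 12.49, 12.16 and 12.83 in MMS-treated and 11.31, 10.64 and 13.04 in untreated knock-out liver, against 12.49, 12.77 and 12.64 in MMS-treated and 8.19, 8.14 and 8.58 in untreated wild-type liver, and was higher in untreated knock-out than untreated wild-type liver by 3.36 ± 0.47 (adjusted p = 0.045). None of Hnf4a, Cebpa, Cebpb and Cebpd passed in that response.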

How the data were processed

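Per the labels' protocols, Trizol was used to isolate total RNA from whole liver, from which biotinylated cRNA was made for the arrays. The deposited values are 1 log2 number per probe set and array, computed by the authors with RMA (background correction, normalization and summary of probes) per the submitters' processing notes. Neither its version nor the chip definition nor the log base is stated there, and the base was read from the range of the values. RMA brings arrays toward a common scale, which can hide a shift common to most probe sets. The array medians still ran from 7.42 to 7.75, so such shifts were not wholly removed from these values. The values carry no detection call.

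Arrays were grouped by the labels, and the table had 0 extra sample columns. Of 22690 probe sets, 64 controls were set aside and 22626 tested. The platform annotation gave 20380 of them 1 symbol, 691 several and 1555 none, and 20351 symbols were matched through the gene identifier to a RefSeq table (GRCm38.p6). Where a gene had several probe sets, the one of highest mean signal stood for it. A linear model with a mean for each group was fitted to the 12 arrays with limma 3.58.1 under R 4.3.3, leaving 8 residual degrees of freedom. Variances were moderated, and p-values were adjusted by Benjamini-Hochberg over all 22626 probe sets, with 0.05 as the threshold. The code was tested on simulated data.

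The factors called in any comparison, filled up to 10 by the smallest p in the averaged MMS response, were given array by array. Those named for the comparison of MMS-treated genotypes were chosen after their values were seen. The members, the lists of other pathway genes, regulators, acute phase genes and cell type markers, and the alternatives were chosen with earlier results of these data known. The alternatives were a further quantile normalization, centring on array medians, a filter on mean log2 signal of at least 6, a trended robust variance, array weights, averaging all probe sets per gene, the compared groups alone, the animal number as a block, and arrays left out. A covariate from control 5′ and 3′ signals was added after seeing the data.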

Additional observations from a re-analysis of the deposited data

Results flagged for a closer look

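For 3 factors every MMS-treated array of one genotype lay above the mean of its untreated arrays and every MMS-treated array of the other genotype lay below it. The difference of the MMS responses, knock-out minus wild type, was tested for each with limma and none was called. It was 1.02 ± 0.34 (SE, log2) for Cfp (adjusted p = 0.188), where knock-out arrays were higher and wild-type arrays lower after MMS. It was 0.30 ± 0.19 for Mbl2 (adjusted p = 0.414), in the same direction. It was -0.55 ± 0.38 for C6 (adjusted p = 0.46), in the opposite direction, and the untreated wild-type mean of C6 holds the array at 11.34. With the control 5′ minus 3′ signal as a covariate these differences were 0.52 ± 0.28 for Cfp, 0.13 ± 0.19 for Mbl2 and -0.36 ± 0.45 for C6.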

How the results depend on the processing

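The count of called factors was 0 for untreated genotypes under every alternative run. For the averaged response it was 1 as reported, 0 with median centring and with the replicate block, 1 with the control-signal covariate (F13b), 2 after quantile normalization, with all probe sets of a gene averaged and with both knock-out arrays numbered 3 removed, 3 with the filter on mean signal, 4 with the trended robust variance, 7 with array weights, and 0 to 2 with single arrays left out. For the knock-out response it was 0 as reported, 1 with the filter (Masp1), 2 with the trended robust variance and without both knock-out arrays numbered 3, 9 with array weights, and 0 to 3 with single arrays left out, 3 being without MMS-treated knock-out array 3 (Masp1, F9 and F10). For the wild-type response it was 0 as reported, 2 with the trended robust variance (F13b and Klkb1), 2 with the covariate (F13b and Serpind1) and 3 with array weights. Between MMS-treated genotypes it was 0 as reported, 3 without both knock-out arrays numbered 3, 5 with array weights, and 0 to 4 with single arrays left out. For the difference of the responses it was 0 as reported and 4 with array weights. For alternatives other than array weights and the removals of array 3, the share called over all probe sets is not given here. Those counts are therefore not read against a background. Where it is given below, the share called over all probe sets rose as well. It was 33% in the averaged, 25.6% in the knock-out and 21.5% in the wild-type response, 6.55% between MMS-treated genotypes and 10.4% in the difference of the responses with array weights. It was 14.7% in the knock-out response and 5.98% between MMS-treated genotypes without both knock-out arrays numbered 3, and 14.4% and 4.94% without MMS-treated knock-out array 3 alone. The cause of these changes was not tested. The averaged response of Cfb was 0.19 as reported and -0.02 with the covariate. It was the one reversal among 2 sets of values: the averaged responses of the 10 factors with the smallest p there, and the differences of the 7 factors named between MMS-treated genotypes. Outside these sets, 10 of the 30 knock-out responses changed sign with the covariate. Cfp (0.49 and -0.01) and Cfb (0.39 and -0.02) were among them. Over all 180 differences of the 30 factors, the sign changed in 56 with centring, 36 with the covariate and 6 after quantile normalization. Same-numbered arrays had correlations of -0.48 to 0.40 in their deviations, over 0.1 in 7 of 12 pairs. Differently numbered arrays were not set beside them, so whether the animal numbers pair the arrays was not tested. The replicate block changed no call other than that of Masp1. Without a detection call, and with 3 arrays a group, small differences in the factors could not be resolved.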

Other observations

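Markers of other cell types in the same livers gave more calls than the 30 factors, in the single-genotype responses mainly in wild type. Of 10 stellate cell and fibroblast markers, 0 were called in the knock-out response, and 4 fell in the wild-type response (Col1a1, Col1a2, Col3a1 and Lum, with Col1a1 at -2.49 ± 0.34, limma adjusted p = 0.00457). Of 10 endothelial markers, 0 were called in the knock-out response, and Kdr, Tek, Cdh5 and Stab2 fell in the wild-type response. Of 8 measured lymphocyte markers, 0 were called in the knock-out response, and Cd3e and Cd79b fell in the wild-type response. In the averaged response 5 stellate, 4 endothelial and 2 lymphocyte markers fell, 2 neutrophil markers rose, and 1 Kupffer marker rose and 2 fell.

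The other lists held 1 or 2 calls each. Of 7 platelet markers, 0 were called in the knock-out response, and Pf4, a platelet chemokine, fell in the wild-type response (-0.68 ± 0.16, adjusted p = 0.0323), where 4 of the 7 were positive and the median was 0.19. Of 9 measured neutrophil markers, 0 were called in the knock-out response, and S100a8 and S100a9 rose in the wild-type response (2.33 ± 0.44 and 2.62 ± 0.57), where 4 of the 9 were negative, the granule genes Camp, Ltf and Mpo among them, and the median was 0.01. Of 9 Kupffer cell and macrophage markers, 0 were called in the knock-out response, and Marco rose while Adgre1 fell in the wild-type response (1.29 ± 0.34 and -0.98 ± 0.15). Of 5 bile duct markers, Krt19 rose in the knock-out response (1.90 ± 0.40, adjusted p = 0.0472), and 0 were called in the wild-type response. Of 4 erythroid markers, 0 were called in the knock-out response, and Hba-a1, at a dim probe set with a mean log2 signal of 5.85, rose in the wild-type response (0.92 ± 0.14), where the brighter Alas2 differed by -0.46 ± 0.16 without a call.

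In the knock-out response 24.8% of all probe sets had an unadjusted p under 0.05. At that level there were 2 higher and 3 lower of 10 stellate markers, 2 higher and 3 lower of 10 endothelial, 2 lower of 8 lymphocyte, 2 lower of 7 platelet, 3 higher of 9 neutrophil, 1 higher and 1 lower of 9 Kupffer, 2 higher and 1 lower of 5 bile duct, and 2 lower of 4 erythroid markers. In the difference of the MMS responses 0 of all 22626 probe sets were called by limma, and 4009 had an unadjusted p under 0.05.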
